A study of Mus musculus with 8 samples.

Results

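Keratinocytes are held together by 3 kinds of cell junction, and the genes that build them are described here in newborn mouse epidermis carrying an induced deletion in Esrp1, the gene of a splicing regulator. The set was 40 genes named by their role: 18 tight junction genes, 8 adherens junction genes and 14 desmosome genes. All 40 were found by symbol among the 21690 genes of the expression table. Of these, 38 had a mean of at least 1 TPM and were tested, and Cldn7 and Cldn10 fell under that limit.

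Tight junctions seal the space between cells in the granular layer of the epidermis, where claudins and occludin span the membrane and scaffold proteins such as ZO-1 tie them to actin. Adherens junctions join cells through E-cadherin and P-cadherin, whose tails bind catenins and through them actin, with nectins as a parallel system. Desmosomes join the keratin filaments of neighbouring cells, through desmogleins and desmocollins outside and plakophilins, plakoglobin and desmoplakin inside. ESRP1 and ESRP2 are RNA-binding proteins of epithelial cells that regulate alternative splicing, and several adhesion genes are known among the transcripts that they regulate.

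Back-skin epidermis was taken at postnatal day 5, and total RNA was sequenced in 8 libraries that the labels call biological replicates. The 4 experimental libraries came from mice labelled K5rTA tetOCre Esrp1flox/flox; Esrp2-/-, in which doxycycline induces Cre under a keratin 5 driver, active in basal keratinocytes and the follicle cells continuous with them. The 4 control libraries came from mice with the same Esrp1flox/flox and Esrp2-/- alleles but no Cre system. Dams of the litters ate high-doxycycline chow from embryonic day 17. Both groups were therefore Esrp2-/- by genotype, and the contrast is the added deletion in Esrp1, which cannot be told apart from any effect of the 2 transgenes. Whether each library was a single animal is not given in the labels, so p-values measure the spread between these libraries.

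Levels are TPM, a share of all transcripts per unit of gene length. Entries at or under 1 TPM are listed at 0, so a 0 is not absence, and TPM keeps no depth, so sequencing depth was unknown. Between 10401 and 11077 genes lay above 1 TPM in experimental libraries and between 10523 and 11640 in control libraries. Esrp1 stood at 65.0, 49.8, 75.6 and 66.5 TPM in the experimental libraries, against 135, 131, 133 and 162 TPM in the control libraries. The groups did not overlap (log2 change -1.13, SE 0.17, limma adjusted p = 0.0112). Exact permutation of the 8 libraries, two-sided, gave p = 0.0286, the lowest value possible with 4 libraries a group. RNA of Esrp2 was still listed above the floor in 7 of 8 libraries, at 4.98, 3.25, 5.28 and 4.22 TPM in experimental libraries, against 3.07, 0, 2.14 and 3.31 TPM in control libraries. The groups overlapped, and the change of 0.73 had an adjusted p of 0.176 in limma (unadjusted p = 0.0166). Libraries of one group differed in the summed RNA of cell type markers. The summed level of 7 basal keratinocyte markers was 1730 to 2970 TPM in experimental libraries and 914 to 7999 TPM in control libraries, lowest in control library 4 and highest in control library 1. The summed level of 12 hair follicle markers was 1534 to 11071 TPM in experimental libraries, lowest in library 2, and 6431 to 47334 TPM in control libraries, highest in library 4. All 8 suprabasal markers together reached 99629 to 137674 TPM in experimental libraries and 79936 to 92247 TPM in control libraries, without overlap. The 10 sebaceous gland markers summed to 88.8 to 160.3 TPM in experimental libraries and 213 to 571 TPM in control libraries, lower in experimental libraries without overlap, and their part in the junction results was not tested. Cell cycle markers summed to 91.6 to 95.5 TPM in experimental libraries and 38.8 to 294 TPM in control libraries, immune markers to 190.03 to 395 TPM and 141 to 537 TPM, and erythroid markers to 222 to 4178 TPM and 181 to 9583 TPM, in the same order. The 5 endothelial markers were listed at 0 in every library, and the 6 fibroblast markers summed to at most 3.29 TPM in experimental libraries and 29.6 TPM in control libraries. In such bulk tissue, fewer cells of a type and less RNA per cell cannot be told apart.

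The junction genes fitted the labelled tissue: desmosome genes stood highest, and Perp, a membrane protein of desmosomes, was the most abundant of the 40. The summed level of the 14 desmosome genes was 5143, 3782, 5438 and 5022 TPM in experimental libraries, against 5053, 5039, 4264 and 5175 TPM in control libraries. The 8 adherens junction genes summed to 945, 629, 892 and 926 TPM in experimental libraries, against 888, 853, 909 and 1238 TPM in control libraries. The 18 tight junction genes summed to 903, 471, 830 and 727 TPM in experimental libraries, against 687, 773, 894 and 1625 TPM in control libraries. For all 3 classes the groups overlapped, with experimental library 2 the lowest of its group, and control library 4 the highest of its group.

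**Figure D1:**
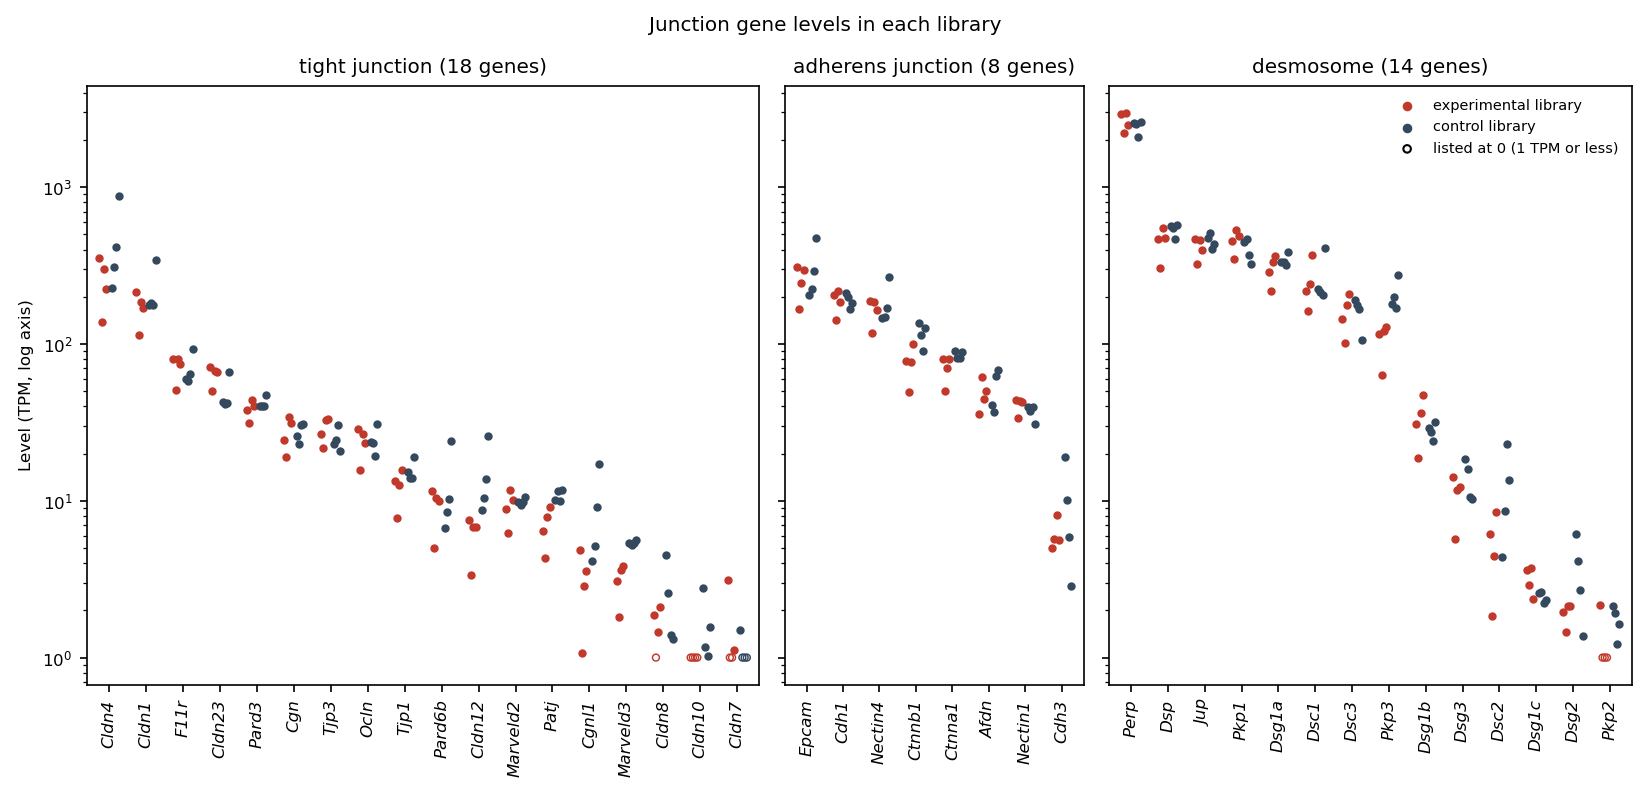
Level of each junction gene in each library, in TPM on a log axis, with genes ordered by their mean in the 3 classes. Red points are the 4 experimental libraries and dark points the 4 control libraries, and open points mark entries listed at 0. Perp lies between 2103 and 2965 TPM in both groups, while Cldn7, Cldn8, Cldn10 and Pkp2 reach the 1 TPM floor.

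No junction gene passed the test in either direction. In the limma fit over 10682 genes, 0 of 38 members reached an adjusted p under 0.05, where 2.46% of all tested genes did. At an unadjusted p under 0.05 there were 6 members, all lower in experimental libraries: Marveld3, Cldn12, Patj and Cgnl1 of the tight junction, Ctnnb1 of the adherens junction and Pkp3 of the desmosome. The background for that count is 16.9% of all tested genes, with 13.4% lower and 3.54% higher. The authors' deposited table of genes lower in experimental mice holds 4.72% of the tested genes and no tested member. Of the 40 members it lists Cldn10 alone, which was under the limit for testing. The count of members called stayed at 0 in each of 8 fits that left out 1 library. Leaving out a pair of controls gave 2 calls for libraries 1 and 2, where 5.19% of all genes were called, and 4 calls for libraries 3 and 4, where 24.2% were. Library weights gave 10 calls, where 41.4% of all genes were called, and an adjusted p under 0.1 gave 1, where 5.0% of all genes passed.

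Most members had a log2 change below 0, and so did most genes of the table. The log2 change lay below 0 for 30 of 38 members, where 74.5% of all genes lay below 0. The median log2 change was -0.20 over the members and -0.18 over all tested genes. By class the median was -0.30 for tight junction genes, -0.16 for adherens junction genes and -0.18 for desmosome genes. Without experimental library 2 these medians were -0.090, -0.078 and -0.054, with -0.12 over all genes, and without control library 4 they were -0.098, -0.0029 and -0.20, with -0.26 over all genes. How the classes stand against all genes thus rests on single libraries. When each library was centred on its median, the all-gene median became 0.03 and 18 of 38 members lay below 0, where 45.5% of all genes did, with a member median of 0.01. The sign of many small changes therefore depends on the scaling, and centred values are given beside the genes with the larger ones. The groups did not overlap for 5 members, all lower in experimental libraries (Marveld3, Cldn12, Patj, Ctnna1 and Pkp3), where 9.94% of all tested genes were lower without overlap and 2.7% higher.

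**Figure D2:**
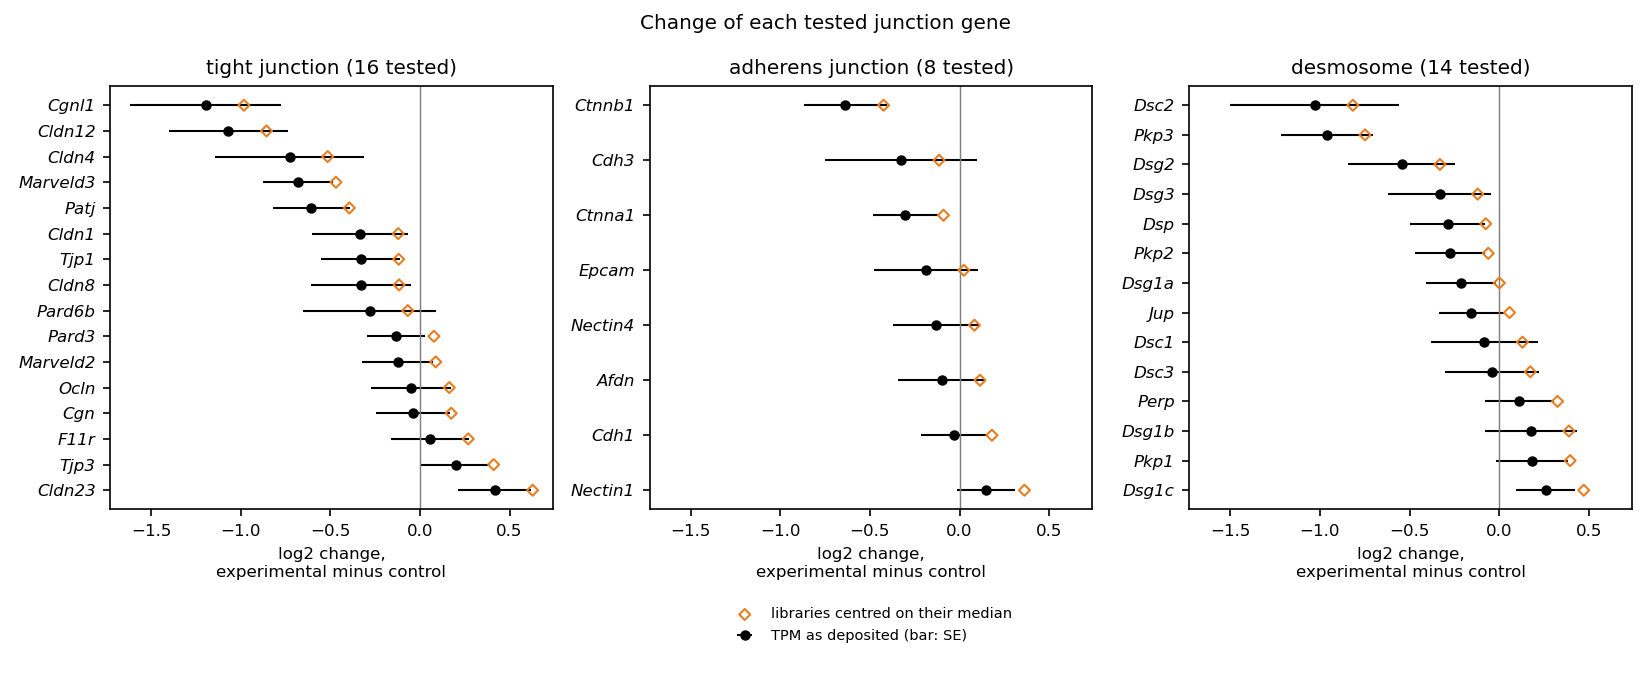
Log2 change of log2(TPM + 1), experimental minus control, for the 38 tested junction genes in the 3 classes. Black points are the values as deposited with SE bars, and open diamonds the values after each library was centred on its median. Cgnl1, Cldn12, Dsc2 and Pkp3 lie farthest to the left, near -1, and Cldn23 farthest to the right at 0.42.

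Among the tight junction genes, the claudins are the strands of the seal. Cldn4 and Cldn1, the claudin without which newborn mice lose water through the skin, were the most abundant. Cldn4 stood at 356, 139, 302 and 225 TPM in experimental libraries, against 226, 311, 414 and 876 TPM in control libraries. Cldn1 stood at 216, 114, 187 and 170.05 TPM in experimental libraries, against 177, 184, 178 and 343 TPM in control libraries. Control library 4 was highest for both and experimental library 2 lowest, and the groups overlapped. The log2 change was -0.73 for Cldn4 (adjusted p = 0.403) and -0.33 for Cldn1 (adjusted p = 0.551, both limma). Cldn23 was the member with the highest log2 change, 0.42 (SE 0.20, adjusted p = 0.33 by limma). It stood at 71.8, 49.9, 66.8 and 66.3 TPM in experimental libraries, against 42.8, 41.3, 42.0 and 66.0 TPM in control libraries, so control library 4 alone overlapped the experimental range.

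Cldn12, a claudin known from calcium transport in gut and kidney, had lower levels in all 4 experimental libraries than in the controls (GRCm38 chromosome 5, 5489537 to 5514958, minus strand). It stood at 7.57, 3.38, 6.81 and 6.83 TPM in experimental libraries, against 8.71, 10.4, 13.8 and 26.0 TPM in control libraries. The mean was 6.15 ± 1.88 TPM in experimental libraries and 14.7 ± 7.82 TPM in control libraries (SD, n = 4 each). The log2 change was -1.07 (SE 0.33, adjusted p = 0.133 by limma) and -0.86 when centred. Most of the control spread is control library 4, which also holds the most hair follicle RNA, and the part of hair in the difference was not tested.

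Low claudins were near the floor of the table. Cldn8 was listed at 1.88, 0, 1.47 and 2.10 TPM in experimental libraries, against 4.51, 2.57, 1.40 and 1.32 TPM in control libraries. Cldn7 was listed at 3.12, 0, 0 and 1.12 TPM in experimental libraries, against 1.5, 0, 0 and 0 TPM in control libraries. Cldn10 was listed at 0 in all 4 experimental libraries, against 2.77, 1.17, 1.03 and 1.57 TPM in control libraries. For Cldn10, a claudin of ion-selective seals in kidney, the authors' deposited table gives a log2 fold change of -2.19 (SE 0.59) with an adjusted p of 0.00525 and a mean normalized count of 133. With no filter on low values the limma fit gave Cldn10 a log2 change of -0.35 (adjusted p = 0.36), on a scale where every experimental entry sits at the floor. The 2 sources thus differ for this gene, and the floored table cannot give its fold.

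The MARVEL proteins occludin, tricellulin and MARVELD3 also span the membrane. Marveld3 was lower in every experimental library (chromosome 8, 109947914 to 109962203, minus strand), at 3.08, 1.80, 3.61 and 3.84 TPM, against 5.40, 5.20, 5.40 and 5.66 TPM in control libraries. Its control libraries lay close together, at 5.41 ± 0.19 TPM, and the experimental ones at 3.09 ± 0.91 TPM (SD, n = 4 each). The log2 change was -0.68 (SE 0.20, adjusted p = 0.107 by limma) and -0.47 when centred. Its relatives Ocln, which encodes occludin, and Marveld2, which encodes tricellulin of the corners where cells meet, overlapped between groups. Ocln averaged 23.6 ± 5.72 TPM in experimental libraries and 24.2 ± 4.79 TPM in control libraries, and Marveld2 averaged 9.23 ± 2.31 and 9.93 ± 0.53 TPM in the same order (SD, n = 4 each). Their log2 changes were -0.05 and -0.12.

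Inside the cell, Patj encodes a many-PDZ scaffold of the Crumbs polarity complex (chromosome 4, 98395785 to 98719603, plus strand). It stood at 6.43, 4.34, 7.89 and 9.16 TPM in experimental libraries, against 10.1, 11.5, 9.94 and 11.8 TPM in control libraries. The groups were apart by less than 1 TPM at their nearest, and the log2 change was -0.61 (SE 0.21, adjusted p = 0.18 by limma), or -0.39 when centred. Cgnl1 encodes paracingulin, a plaque protein of tight and adherens junctions. It stood at 4.85, 1.07, 2.85 and 3.56 TPM in experimental libraries, against 4.13, 5.18, 9.19 and 17.2 TPM in control libraries. Experimental library 1 lay above control library 1, so the groups overlapped, and the log2 change of -1.19 (SE 0.42, adjusted p = 0.18 by limma) came with a 4.16-fold spread among controls, and was -0.98 when centred. The other scaffolds Tjp1 (ZO-1), Tjp3 (ZO-3), Cgn (cingulin), Pard3 and Pard6b, the last 2 of the PAR polarity complex, and the adhesion molecule F11r (JAM-A) had overlapping groups. Their log2 changes ran from -0.33 for Tjp1 to 0.20 for Tjp3, and F11r, the third most abundant tight junction member, stood at 80.4, 50.8, 80.1 and 74.3 TPM in experimental libraries, against 59.4, 58.3, 64.1 and 93.4 TPM in control libraries.

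**Figure D3:**
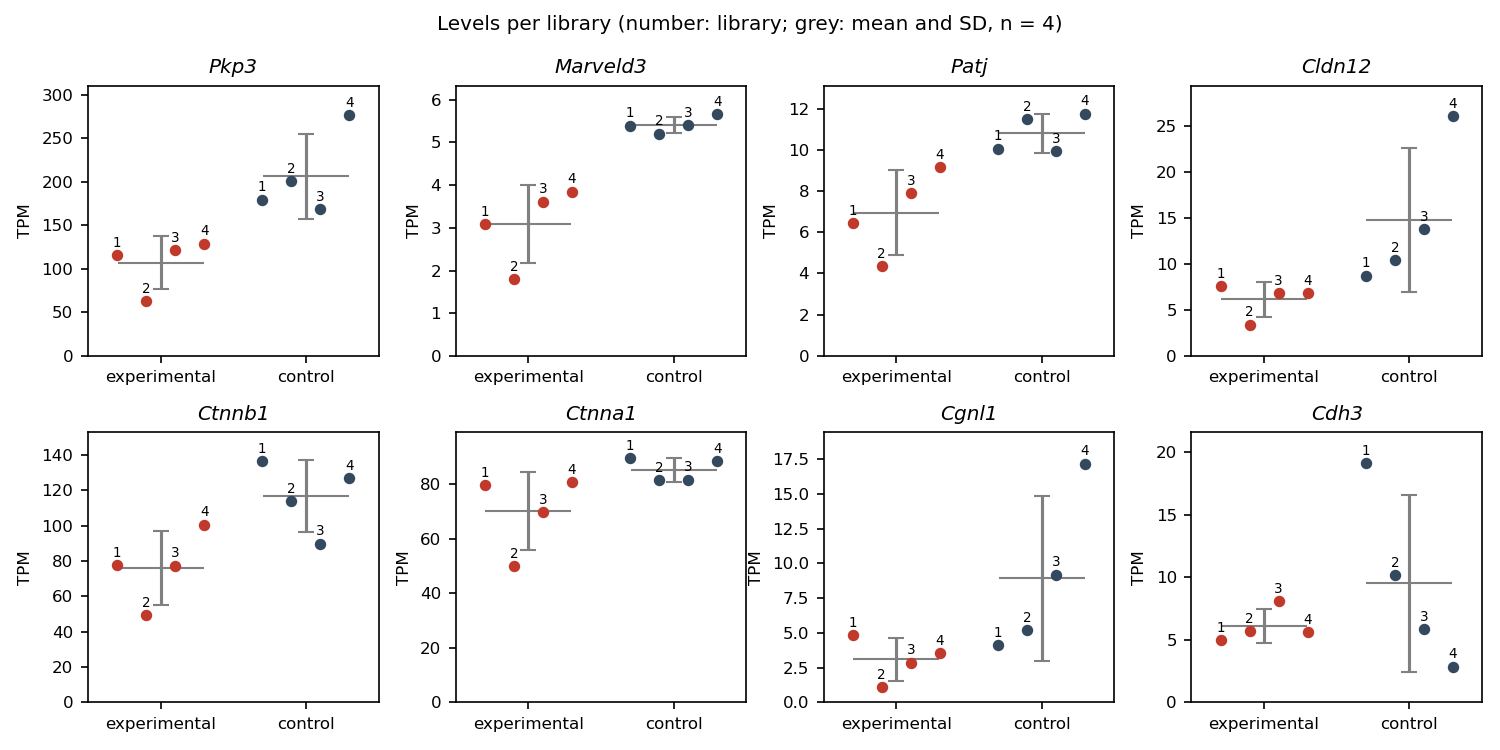
Level in TPM of 8 junction genes in each library, on linear axes from 0, experimental on the left and control on the right. Numbers name the libraries, and grey marks give the mean and SD (n = 4). Pkp3, Marveld3, Patj, Cldn12 and Ctnna1 show no overlap between groups, while those of Ctnnb1, Cgnl1 and Cdh3 overlap.

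In the adherens junction, the cadherin and most of its partners had overlapping groups, and no member passed the test. Cdh1, which encodes E-cadherin, stood at 206, 142, 217 and 186 TPM in experimental libraries, against 210.5, 201, 168 and 183 TPM in control libraries. The difference was smaller than its error, with a log2 change of -0.03 (SE 0.18, adjusted p = 0.943 by limma). Ctnnb1 encodes beta-catenin, which binds the cadherin tail and also carries Wnt signals (chromosome 9, 120929216 to 120960507, plus strand). It stood at 77.7, 49.2, 77.3 and 100.5 TPM in experimental libraries, against 136, 114, 89.8 and 127 TPM in control libraries. Control library 3 lay below experimental library 4, and the log2 change was -0.64 (SE 0.23, adjusted p = 0.194 by limma), or -0.42 when centred.

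Ctnna1 encodes alpha-catenin, the link from beta-catenin to actin (chromosome 18, 35118859 to 35254779, plus strand). It stood at 79.8, 50.1, 69.9 and 80.8 TPM in experimental libraries, against 89.7, 81.4, 81.8 and 88.4 TPM in control libraries. The highest experimental and the lowest control library were within 1 TPM of each other, and the log2 change was -0.30 (SE 0.18, adjusted p = 0.427 by limma), or -0.09 when centred and -0.15 without experimental library 2.

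Cdh3 encodes P-cadherin, a cadherin of basal and hair follicle cells. It stood at 4.98, 5.69, 8.08 and 5.62 TPM in experimental libraries, against 19.1, 10.2, 5.86 and 2.86 TPM in control libraries. The experimental libraries all lay inside the control range, which spread 6.68-fold, with control library 1 highest and control library 4 lowest, as for the summed basal markers of those libraries. The log2 change was -0.33 (SE 0.43, adjusted p = 0.715 by limma), with 0.072 when control library 1 was left out and 0.44 when libraries 1 and 2 both were. The other way, it was -0.72 without control library 4, -1.10 without control libraries 3 and 4 (limma adjusted p = 0.0241) and -0.63 with library weights (limma adjusted p = 0.0493). As a share of Cdh1, Cdh3 made up 2.42%, 4.02%, 3.72% and 3.02% in experimental libraries, against 9.09%, 5.06%, 3.50% and 1.57% in control libraries.

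Among the nectin system, Nectin1 stood at 44.0, 33.9, 43.4 and 42.9 TPM in experimental libraries, against 39.5, 37.5, 39.4 and 31.1 TPM in control libraries. Nectin4 stood at 188, 118, 185 and 165 TPM in experimental libraries, against 145, 148, 170.1 and 266 TPM in control libraries. Both overlapped between groups, with log2 changes of 0.15 for Nectin1 (0.072 without control library 4 and 0.24 without experimental library 2) and -0.13 for Nectin4. Afdn, the afadin that anchors nectins to actin, ranged from 35.7 to 62.0 TPM in experimental libraries and from 37.1 to 68.4 TPM in control libraries.

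Epcam, an adhesion molecule of epithelia that binds and stabilises claudins, was the most abundant adherens member and the 1 member of the 40 with an entry in the authors' deposited splicing table. Among all tested genes, 1.82% have an entry there. Its level overlapped between groups, at 309, 168, 246 and 295 TPM in experimental libraries, against 206, 225, 291 and 472 TPM in control libraries. The log2 change was -0.19 (SE 0.29, adjusted p = 0.763 by limma), or 0.02 when centred. The gene lies on chromosome 17, 87635979 to 87651129, plus strand (GRCm38, GENCODE M21). MAJIQ, the tool behind that table, estimates the share of reads that use a junction or a retained intron (PSI) from the pooled libraries of a group. In the authors' deposited table, the first 224 bases of intron 2 (87636895 to 87637118) had a PSI of 0.279 in the experimental group and 0.024 in the control group. The expected difference was 0.26, with a probability of 0.988 that it exceeds 0.15 in size, in the authors' deposited table. The junction that splices exon 2 to exon 3 (87636894 to 87639896) had a PSI of 0.719 in the experimental group and 0.974 in the control group, a difference of -0.263 with a probability of 0.992, in the authors' deposited table. This retained stretch is marked as absent from the annotation, and the same event is also listed there as an alternative last exon. The intron is 3001 bases long, and the segment listed covers its start. The event falls shortly after the start of translation, since exon 2 holds 76 coding bases, which begin with the start codon, and exon 3 holds 108 bases. The spliced product that lost share is shown because the junction is the point of the change, with the coding part of exon 2 in lower case and exon 3 in capitals, so the case boundary marks the splice junction (GENCODE M21 transcript, plus strand, 5′ to 3′).
Epcam exons 2 and 3: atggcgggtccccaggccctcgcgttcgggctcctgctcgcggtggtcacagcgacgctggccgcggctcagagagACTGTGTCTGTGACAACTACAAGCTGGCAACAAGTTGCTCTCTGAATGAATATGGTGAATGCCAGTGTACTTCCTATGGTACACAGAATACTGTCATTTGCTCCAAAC

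**Figure D4:**
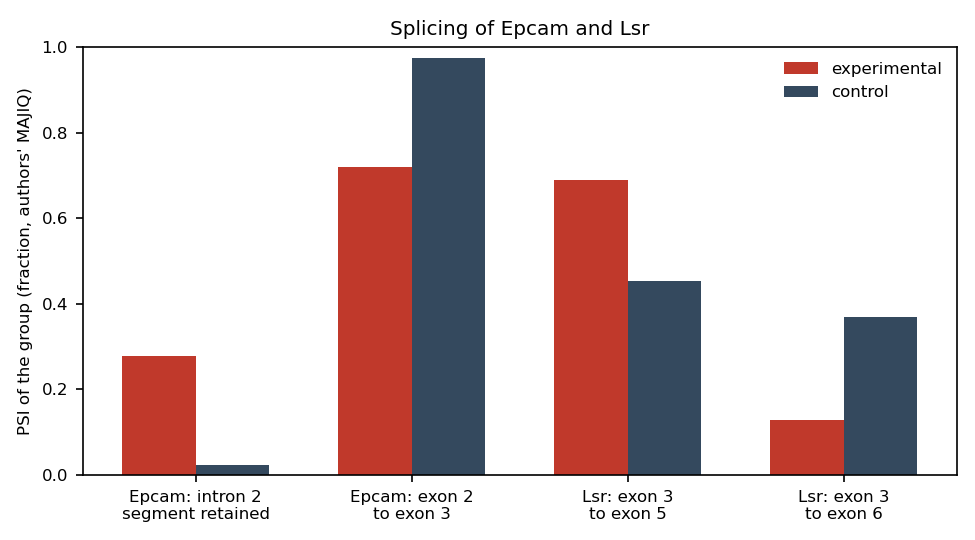
PSI of 4 junction or intron entries in the experimental group and the control group, from the authors' deposited MAJIQ table, as fractions of the group's pooled reads without error bars. For Epcam the intron 2 segment is at 0.279 in the experimental group and 0.024 in the control group. For Lsr the junction from exon 3 to exon 5 is at 0.690 in the experimental group and 0.454 in the control group.

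In the desmosome, the plakophilin Pkp3 had the lowest p of all 40 members. Pkp3 encodes plakophilin 3, an armadillo protein that binds desmosomal cadherins and desmoplakin in all living layers of the epidermis (chromosome 7, 141078218 to 141090510, plus strand). It stood at 115, 63.2, 122 and 129 TPM in experimental libraries, against 179, 200.5, 169 and 276 TPM in control libraries. The mean was 107 ± 29.9 TPM in experimental libraries and 206 ± 48.6 TPM in control libraries (SD, n = 4 each), and the groups did not overlap. The log2 change was -0.96 (SE 0.26, adjusted p = 0.0844 by limma), or -0.75 with an adjusted p of 0.149 when centred. Experimental library 2 was the lowest and control library 4 the highest, and these are also the libraries with the least and the most hair follicle RNA. The change of Pkp3 was -0.73 on the log2 scale without experimental library 2 (adjusted p = 0.162) and -0.81 without control library 4 (adjusted p = 0.078, both limma), and the part of hair in it was not tested.

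Plakophilin 1, the major plakophilin of suprabasal cells, had another pattern in the same libraries. Pkp1 stood at 453, 351, 530.04 and 491 TPM in experimental libraries, against 448, 467, 367 and 324 TPM in control libraries. Its log2 change was 0.18 (SE 0.20, adjusted p = 0.661 by limma), and its groups overlapped. Pkp3 amounted to 25.5%, 18.0%, 23.0% and 26.2% of Pkp1 in experimental libraries, against 40.0%, 42.9%, 46.0% and 85.4% in control libraries. This share, chosen after its values were seen, did not overlap between groups, and it does not depend on how the libraries are scaled. Pkp2, the plakophilin of heart and of simple epithelia, was listed at 2.16, 0, 0 and 0 TPM in experimental libraries, against 2.14, 1.94, 1.22 and 1.63 TPM in control libraries.

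The structural core of the desmosome overlapped between groups. Perp stood at 2925, 2227, 2965 and 2510.5 TPM in experimental libraries, against 2569, 2525, 2103 and 2602 TPM in control libraries. Dsp, whose product desmoplakin ties the plaque to keratin, stood at 469, 304, 546 and 478 TPM in experimental libraries, against 568, 549, 465 and 571 TPM in control libraries. Jup, which encodes plakoglobin, stood at 469.96, 323, 463 and 396 TPM in experimental libraries, against 477, 509.7, 406 and 434 TPM in control libraries. Log2 changes were 0.11 for Perp, -0.29 for Dsp and -0.16 for Jup, each within 1.5 times its SE. Perp made up 50.0% to 58.9% of the desmosome sum in experimental libraries and 49.3% to 50.8% in control libraries.

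The desmosomal cadherins differ by layer: desmoglein 1 and desmocollin 1 are typical of the upper layers, and desmogleins 2 and 3 and desmocollins 2 and 3 of the lower layers or hair. Their genes lie side by side on chromosome 18. Dsc2 stood at 6.13, 1.84, 4.47 and 8.42 TPM in experimental libraries, against 4.39, 8.60, 23.1 and 13.6 TPM in control libraries. Its log2 change was -1.03 (SE 0.47, adjusted p = 0.306 by limma), or -0.82 when centred and -0.68 without control library 3, with control library 1 inside the experimental range. Dsg2 stood at 1.95, 1.45, 2.14 and 2.13 TPM in experimental libraries, against 6.12, 4.14, 2.69 and 1.37 TPM in control libraries. Control libraries 1, 2 and 3 lay above every experimental library for Dsg2 and control library 4 below them, again in the order of the basal marker sums, and the log2 change was -0.54 (SE 0.30, adjusted p = 0.389 by limma). It was -0.29 without control library 1, -0.82 without control library 4, -0.027 without control libraries 1 and 2, and -1.06 (limma adjusted p = 0.00946) without control libraries 3 and 4. Dsg1c stood at 3.61, 2.91, 3.71 and 2.35 TPM in experimental libraries, against 2.58, 2.63, 2.22 and 2.32 TPM in control libraries, with a log2 change of 0.26 (SE 0.16, adjusted p = 0.447 by limma). Dsg1a, Dsg1b and Dsg1c are near-identical copies, so the split of reads among them is uncertain. Dsg1a averaged 302 ± 64.1 TPM in experimental libraries and 344 ± 30.4 TPM in control libraries, and Dsg1b averaged 33.3 ± 12.0 and 28.0 ± 3.24 TPM in the same order (SD, n = 4 each). Dsg3, Dsc1 and Dsc3 had log2 changes of -0.33, -0.08 and -0.04, all with overlapping groups.

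Set against each other within a library, the upper-layer and lower-layer cadherins gave ratios that overlapped between groups. The ratio of Dsc1 to Dsc3 was 1.51, 1.59, 1.38 and 1.79 in experimental libraries, against 1.17, 1.20, 1.22 and 3.87 in control libraries. Control library 4 alone stood above the experimental range and the other 3 controls below it, so the difference of means, -0.30, became 0.37 without control library 4. The ratio of the 3 Dsg1 genes to Dsg3 was 22.7, 42.0, 31.8 and 33.9 in experimental libraries, against 19.6, 23.0, 32.7 and 40.9 in control libraries.

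A pair of libraries set most of the extremes within the junction genes. Experimental library 2 had the lowest of the 8 levels for 29 of 38 tested members, of which 14 were tight junction, 5 adherens and 10 desmosome genes, where 43.5% of all tested genes had their lowest level there. Control library 4 had the highest level for 18 of 38 members, 11 of them tight junction genes, where 17.3% of all tested genes did. Control library 1, which was highest for 52.2% of all tested genes, was highest for 6 of 38 members. Experimental library 2 also had 18.2% of its TPM in mitochondrially encoded genes and experimental library 4 had 17.5%, against 10.6% to 12.6% in the other 6 libraries. The part of these libraries in each result was not tested beyond leaving them out. The highest control level was 1.60 times the lowest in the median member, where the median over all tested genes was 1.76 times. Among experimental libraries it was 1.83 times in the median member and 1.52 times over all tested genes.

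**Figure D5:**
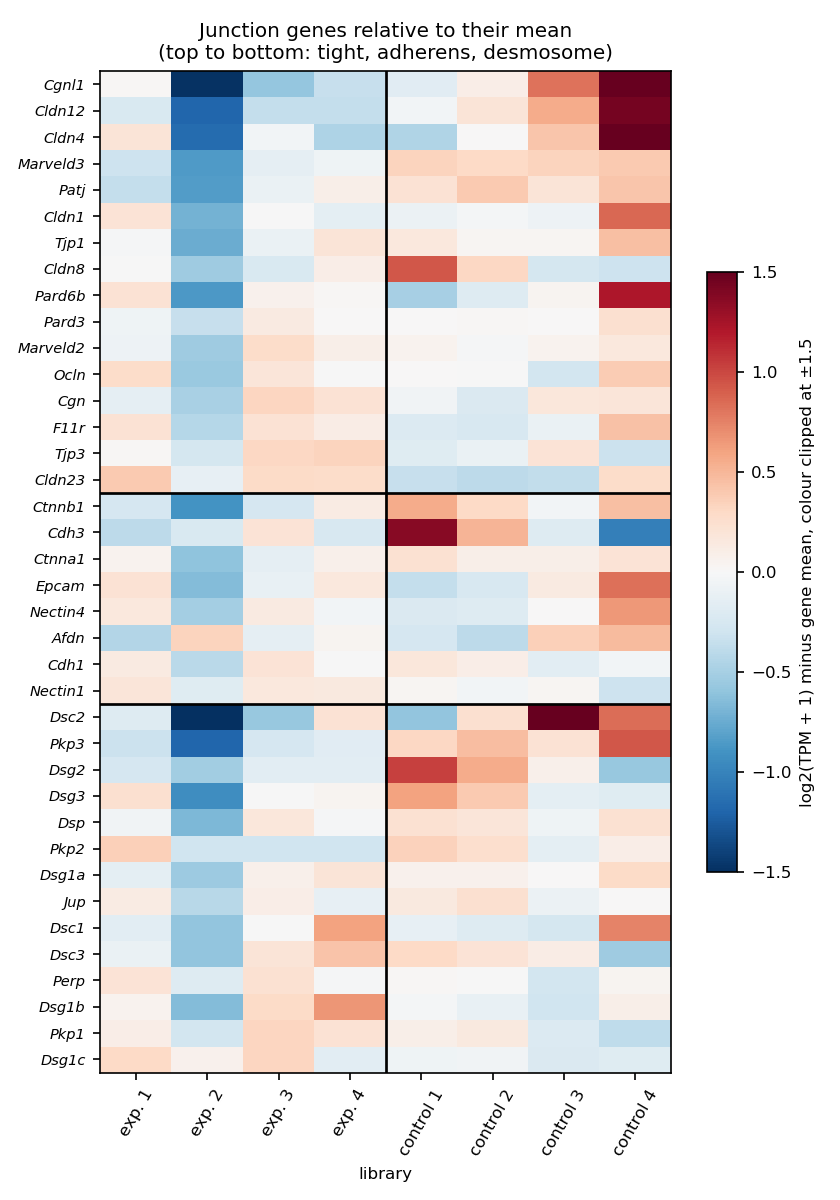
Log2(TPM + 1) of each tested junction gene minus its own mean over the 8 libraries, with experimental libraries in the left 4 columns and control libraries in the right 4, and the colour limited to ±1.5. Experimental library 2 is blue in most rows, the lowest for 29 of 38 genes, and control library 4 is the highest for 18 of 38 genes.

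The level of Pkp3 over the 8 libraries was most like that of Patj (Pearson r of log2 levels 0.954), Marveld3 (0.953) and Cldn12 (0.926) among the tested members. These genes and Pkp3 were all lower in experimental libraries without overlap. All had their lowest level in experimental library 2 and their highest in control library 4. The likeness is thus a description of the same 8 points.

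Beyond the 40 members, 75 other junction genes were listed by role, of which 73 were in the table and 50 were tested. None passed the adjusted threshold in the limma fit, and 11 had an unadjusted p under 0.05, where 16.9% of all tested genes did. The 4 of lowest p were Camsap3, Dsg4, Magi1 and Cldn14, all lower in experimental libraries without overlap, as were 9.94% of all tested genes. Camsap3, which anchors microtubule minus ends at adherens junctions, stood at 13.3, 6.38, 12.6 and 14.1 TPM in experimental libraries, against 21.8, 22.7, 20.7 and 24.0 TPM in control libraries (log2 change -0.94, limma adjusted p = 0.065). Magi1, a scaffold of tight junctions, stood at 4.65, 2.94, 4.12 and 3.76 TPM in experimental libraries, against 6.89, 5.84, 5.87 and 7.73 TPM in control libraries (log2 change -0.64, limma adjusted p = 0.0914). These 2 genes varied little among controls.

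The desmoglein of the hair shaft, Dsg4, stood at 7.82, 1.02, 3.93 and 4.38 TPM in experimental libraries, against 10.9, 13.4, 21.9 and 69.4 TPM in control libraries (log2 change -2.30, limma adjusted p = 0.0661). Cldn14, a claudin known for its need in the inner ear, stood at 3.86, 1.16, 4.03 and 3.35 TPM in experimental libraries, against 4.96, 8.62, 15.2 and 36.0 TPM in control libraries (log2 change -1.81, limma adjusted p = 0.0983). Both were highest in control library 4 and lowest in experimental library 2, the libraries with the highest and lowest hair follicle marker sums, and the part of hair in the difference was not tested. The authors' deposited table lists Dsg4, Cldn14, Camsap3 and Prkcz among its falls, with log2 fold changes of -2.77, -2.40, -0.80 and -0.65. Dsg4, Cldn14 and Camsap3 were among the 50 other genes tested, where that list holds 4.72% of all tested genes. Prkcz, with a mean of 0.77 TPM, was under the limit for testing. In the other direction, 3 genes were higher without overlap, where 2.7% of all tested genes were: Nectin3, Amotl1 (log2 change 0.47, limma adjusted p = 0.231) and Krt1 (log2 change 0.78, limma adjusted p = 0.247). Nectin3, the nectin that pairs with Nectin1 in many epithelia, stood at 53.8, 42.8, 54.3 and 49.0 TPM in experimental libraries, against 36.4, 32.8, 26.5 and 42.7 TPM in control libraries (log2 change 0.53, limma adjusted p = 0.166). The adhesion genes of mesenchyme and endothelium Cdh2, Cdh5, Cdh11 and Cldn5 were listed at 0 in all 8 libraries.

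Splicing of 3 further junction genes, all among the 50 tested, is in the authors' deposited table, where 1.82% of all tested genes have an entry. Lsr encodes angulin-1, which marks corners where cells meet and recruits tricellulin there. It overlapped in level, at 108, 78.9, 115 and 111 TPM in experimental libraries, against 93.5, 99.4, 125 and 167 TPM in control libraries. In the authors' deposited table the junction from exon 3 to exon 5 had a PSI of 0.690 in the experimental group and 0.454 in the control group, a difference of 0.234 with a probability of 0.984. The junction from exon 3 straight to exon 6 had a PSI of 0.129 in the experimental group and 0.370 in the control group, a difference of -0.244 with a probability of 0.999, in the authors' deposited table. On the other side of exon 5, the authors' deposited table gives the junction to exon 6 a PSI of 0.793 in the experimental group and 0.619 in the control group. That difference, 0.178, had a lower probability of 0.758. Exon 4, of 57 bases, is skipped by both of the junctions from exon 3. Exon 5 of the 10 exons of the transcript (chromosome 7, 30962098 to 30962244, minus strand) is 147 bases, or 49 codons, so its use keeps the reading frame. It is shown in capitals, between the last 30 bases of exon 3 and the first 30 of exon 6 in lower case, because it is the stretch whose use differed (GENCODE M21 transcript, 5′ to 3′).
Lsr exon 5 with flanks: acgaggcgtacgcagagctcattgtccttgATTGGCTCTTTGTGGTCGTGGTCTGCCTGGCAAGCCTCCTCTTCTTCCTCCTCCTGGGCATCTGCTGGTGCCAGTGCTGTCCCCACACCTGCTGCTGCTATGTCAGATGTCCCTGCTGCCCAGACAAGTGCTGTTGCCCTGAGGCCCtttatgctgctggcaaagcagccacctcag

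Ctnnd1, which encodes p120 catenin, the partner that keeps cadherins at the membrane, had a PSI of 0.865 in the experimental group and 0.409 in the control group for the junction into a cassette exon, and of 0.120 and 0.580 in the same order for the junction that skips it, in the authors' deposited table. From the exon's other side, the junction that uses it had a PSI of 0.563 in the experimental group and 0.128 in the control group. Counted from that side, the skipping junction had a PSI of 0.324 and 0.771 in the same order, in the authors' deposited table. Abi2, an actin regulator of adherens junctions, had 2 unannotated retained intron entries in the authors' deposited table. Their PSI was 0.570 and 0.614 in the experimental group, against 0.294 and 0.263 in the control group. The junction that splices out both, together with the stretch between them, had a PSI of 0.214 and 0.333 in the experimental group. In the control group it had 0.588 and 0.662, by the side it is counted from. The level of Abi2 was low, at 1.49 to 2.02 TPM in experimental libraries and 1.63 to 3.39 TPM in control libraries.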

How the data were processed

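Expression and splicing tables were used as deposited for 4 experimental and 4 control libraries. Salmon 0.14.0, SAMtools 1.9, STAR and DESeq are named, with GRCm38 and mm10, in the submitters' processing notes, which tie no tool to a table. Expression was deposited as log2 TPM per gene. Set against the mean normalized counts per kilobase in the authors' deposited table, 2 raised to the listed value kept a ratio between 60.5 and 68.0 from low to high levels, so 0 was read as 1 TPM or less. Genes listed at 0 in all libraries, 104 of the authors' table, had mean normalized counts of up to 430, so a 0 is a floor. For differential expression, the authors deposited a mean normalized count (a signal per gene), log2 fold changes, a test score and p-values, per the headers. The genes listed there fell at an adjusted p under 0.05. The authors' deposited MAJIQ table gives PSI fractions pooled per group and a posterior probability score, per the file headers.

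Values were turned back to TPM, set to at least 1, and tested as log2(TPM + 1) with limma 3.58.1 in R 4.3.3 (a group term alone, empirical Bayes with a mean-variance trend, two-sided p adjusted by Benjamini-Hochberg over all 10682 genes with a mean of at least 1 TPM). Fold changes on this scale understate those of low genes. On simulated data over 10682 genes the comparison recovered 52% of genes changed by 1 and 93% of those changed by 2 on the log2 scale, with 5.23% false calls. Changes were put only into genes above a few TPM, and the noise was drawn apart for each gene. Recovery of lower genes, or under shifts that a whole library shares, is therefore not covered. Of 21690 gene identifiers, 21662 matched a symbol. Positions and exons are from GENCODE M21 transcripts and annotation (GRCm38). Python 3.11.15, pandas 2.3.3, numpy 2.4.6, scipy 1.17.1 and matplotlib 3.10.9 were used. Column names give the group but cannot be matched to a numbered title, so libraries are named 1 to 4 in table order and were not paired.

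The members, gene lists and tests were chosen with earlier results of these data known. Named in full were, per class, members without overlap, the 4 of lowest p, the 3 of highest mean, those listed at 0, and those in either authors' table; of the other junction genes, the 4 of lowest p. Pkp1, Cldn23, Nectin3, Amotl1, Krt1, Lsr, Ctnnd1 and Abi2, and the share of Pkp3 in Pkp1, were added after values were seen. Alternatives tried were other pseudocounts, filters, normalizations, thresholds, library weights and leaving out libraries.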

Additional observations from a re-analysis of the deposited data

Results flagged for a closer look

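In 17 of 98 sets of 4 libraries, 1 library stood apart from the other 3 by more than Dixon's critical value for the gap over the range. Chance alone marks about 1 in 20 independent sets. These sets share the same 8 libraries, and the sums and ratios reuse the same genes, so the count is a description and not a test. Control library 4 accounted for 8 of the 17 and experimental library 2 for 4.

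Control library 4 was the highest of its group for Cldn1 (343 TPM, others 177 to 184), Cldn23 (66.0 TPM, others 41.3 to 42.8), Pard3 (47.2 TPM, others 40.2 to 40.5), Dsc1 (412 TPM, others 204 to 225) and Esrp1 (162 TPM, others 131 to 135). It was also the highest for the ratio of Dsc1 to Dsc3 (3.87, others 1.17 to 1.22), for Pkp3 as a share of Pkp1 (85.4%, others 40.0% to 46.0%) and for the adherens junction sum (1238 TPM, others 853 to 909). Experimental library 2 was the lowest of its group for Cldn12 (3.38 TPM, others 6.81 to 7.57), Nectin1 (33.9 TPM, others 42.9 to 44.0), Pkp3 (63.2 TPM, others 115 to 129) and the adherens junction sum (629 TPM, others 892 to 945).

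Control library 3 was the lowest of its group for Perp (2103 TPM, others 2525 to 2602) and the desmosome sum (4264 TPM, others 5039 to 5175). Cldn7 stood apart in experimental library 1 (3.12 TPM, others 0 to 1.12) and in control library 1 (1.5 TPM, others listed at 0). Pkp2 stood apart in experimental library 1 (2.16 TPM, others listed at 0). Where all other entries of a set are listed at 0, any level above the floor is flagged, so such a flag was fixed in advance.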

How the results depend on the processing

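No paired analysis was possible because the columns carry no replicate number that matches the labels. In the limma fits, 0 junction members were called as reported. With library weights 10 were called (2 higher and 8 lower: 6 tight, 2 adherens and 2 desmosome genes), but 41.4% of all genes were then called, with weights from 0.154 for control library 4 to 7.43 for control library 2. Without control libraries 1 and 2 there were 2 (Cgnl1 and Cldn12, both tight), with 5.19% of all genes called. Without control libraries 3 and 4, where 24.2% of all genes were called, there were 4 (2 tight, 1 adherens and 1 desmosome gene). Of these, Cldn8, Cdh3 and Dsg2 were lower and Cldn23 higher. At an adjusted p under 0.1 there was 1 (Pkp3, the 1 desmosome gene), against 5.0% of all genes. Other pseudocounts, filters and normalizations gave 0, as did leaving out any 1 library. Of the 50 other junction genes tested, 0 were called as reported and 1 with quantile normalization (Nectin3, with 3.61% of all genes called). Library weights called 23 (41.4% of all genes). There were 2 without control libraries 1 and 2 (5.19%), 14 without control libraries 3 and 4 (24.2%) and 4 at an adjusted p under 0.1 (5.0%). Leaving out 1 library gave 0 to 3. There were 2 (Cldn14 and Dsg4, with 2.43% of all genes called) without control library 1. There were 3 (Cdsn, Dsg4 and Ssx2ip, with 5.39%) without control library 4.

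The change of Esrp1 was -0.99 (limma adjusted p = 0.154) without experimental libraries 2 and 4, where 0.139% of all genes were called. Cdh3, at -0.33 as reported, ranged from -0.72 without control library 4 to 0.072 without control library 1, and was 0.44 without control libraries 1 and 2 (the cause was not tested). None of 16 named genes passed the threshold as reported, so none could lose it. Of their 317 values under the alternatives, 289 kept direction and side of the threshold, 26 newly passed it and 2 reversed. Those 26 include fits with library weights (41.4% of all genes called) and without control libraries 3 and 4 (24.2%). They also include the looser threshold of 0.1 (5.0%). Pkp3 ranged from -1.07 to -0.73, with adjusted p from 0.0019 to 0.405. With 1 library left out, the difference of means (experimental minus control) ranged from -0.53 to 0.37 for Dsc1 over Dsc3, 0.42 to 7.52 for Dsg1 over Dsg3, -2.59 to -0.08 percentage points for Cdh3 over Cdh1 and -34.9 to -19.8 for Pkp3 over Pkp1, the last chosen after seeing the data. Sums in TPM ranged from -364 to -51.9 for tight, -164 to -35.5 for adherens and -243 to 318 for desmosome genes, and from -338 to -55.2 for claudins. Without experimental library 2 the members' median was -0.05, against -0.12 over all genes. Depth was unknown, and a level near 1 TPM cannot be resolved.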
